A study of Mus musculus with 22 samples.

Results

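Liver metastases of a mouse model of pancreatic neuroendocrine cancer were compared with the tumours of the islets from which that cancer starts. The comparison was formed from the tissue labels alone, as 3 arrays labelled liver metastases against 5 labelled islet tumour. Its means came from 8 of the 22 arrays of the series, and it took in all 19938 genes that had a probe set with a single gene symbol. All samples, controls included, carried the RIP1-TAG2 genotype, in which the rat insulin promoter drives the large T antigen of SV40 in pancreatic beta cells. The normal, hyperplastic and angiogenic islets of the series carry that genotype on their labels too. The labels gave no age, sex or treatment. The islet tumours had the titles I-9811-tumor, II-649-tumor, II-6415-tumor, III-8017-tumor and III-8024-tumor, and their values are listed in that order. The liver metastases had the titles I-9820-Met, I-9821-Met and I-9822-Met, again in the order of their values. A further group of 5 arrays, labelled Met-like primary, was set beside them where it helps to read a value. Nothing in the labels says that the samples came from separate animals, so the p-values measure a spread between samples. That spread was pooled within the groups of all 22 arrays, so each standard error also draws on arrays outside the comparison. All 3 metastases carried the title prefix I, which only 1 of the islet tumours, I-9811-tumor, shared, and the labels do not say what the prefix stands for.

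T antigen binds the retinoblastoma and p53 proteins and thereby releases beta cells from cell cycle control, and the islets of these mice pass from hyperplasia through the growth of new vessels to solid tumours. Spread to the liver is a later and rarer step. A beta cell is marked by insulin, by the factors that keep it mature, such as Pdx1 and Mafa, and by a set of sensors for glucose and incretin hormones, while a dissected piece of liver brings hepatocytes, which make most plasma proteins, and the resident macrophages and vessels of the liver. A dissected piece of pancreas brings acinar cells, which make digestive enzymes. In bulk tissue fewer cells of a type and less RNA per cell cannot be told apart, and this holds for every difference between the groups.

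The values were log2 intensities, 1 per gene and array, and the array medians of the 8 arrays lay between 7.14 and 7.22. A difference is the mean of the metastases minus the mean of the islet tumours on the log2 scale, given with its standard error from limma, and a gene was called at a Benjamini-Hochberg adjusted p below 0.05 over all genes. In this comparison 7296 genes were called, which is 36.6% of those tested. Of these 3451 were higher in the metastases (17.3%) and 3845 lower (19.3%). On 7438 genes (37.3%) the arrays of the groups did not overlap, with 3504 (17.6%) higher and 3934 (19.7%) lower in the metastases. Rises reached further than falls: 219 called genes rose by at least 2 on the log2 scale and 78 fell by as much. For 111 of these rises the metastasis-like primaries stood at least 1 log2 unit above the islet tumours. For 56 of these falls they stood at least 1 log2 unit below them. Over all genes the median difference was -0.03.

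**Figure D1:**
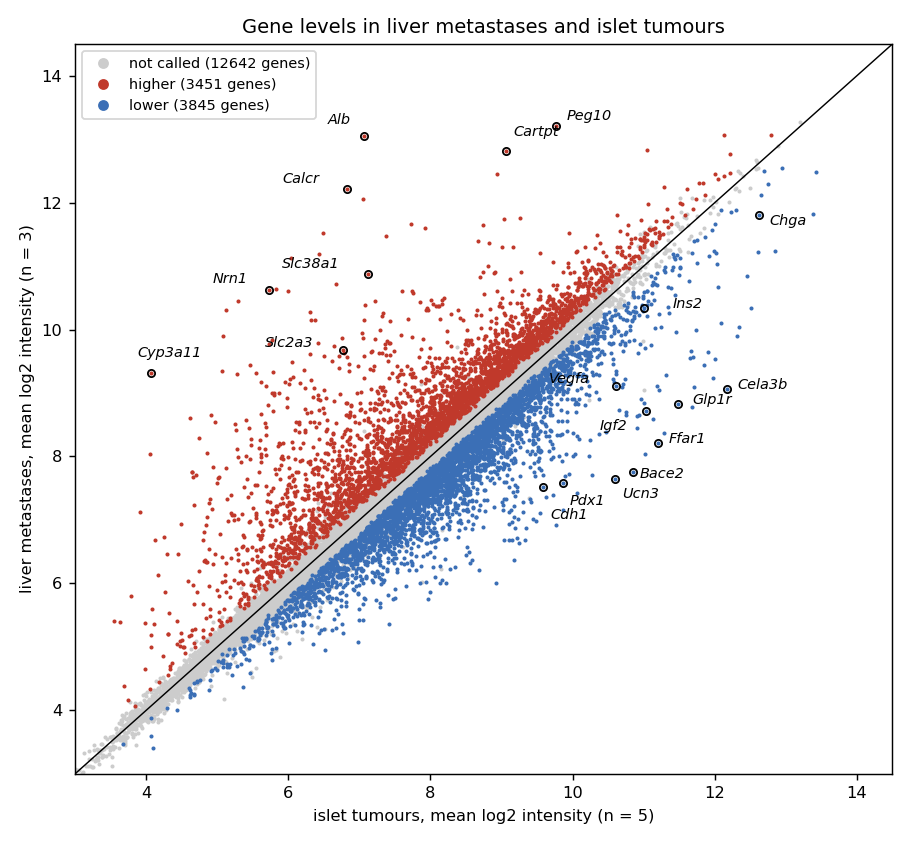
Mean log2 intensity of each gene in the 5 islet tumours (horizontal axis) and the 3 liver metastases (vertical axis), with 1 point per gene, the line of equal levels and 19 genes circled and named. The 3451 genes called higher reach farther from the line than the 3845 called lower, with Alb and Calcr at the top left.

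**Figure D2:**
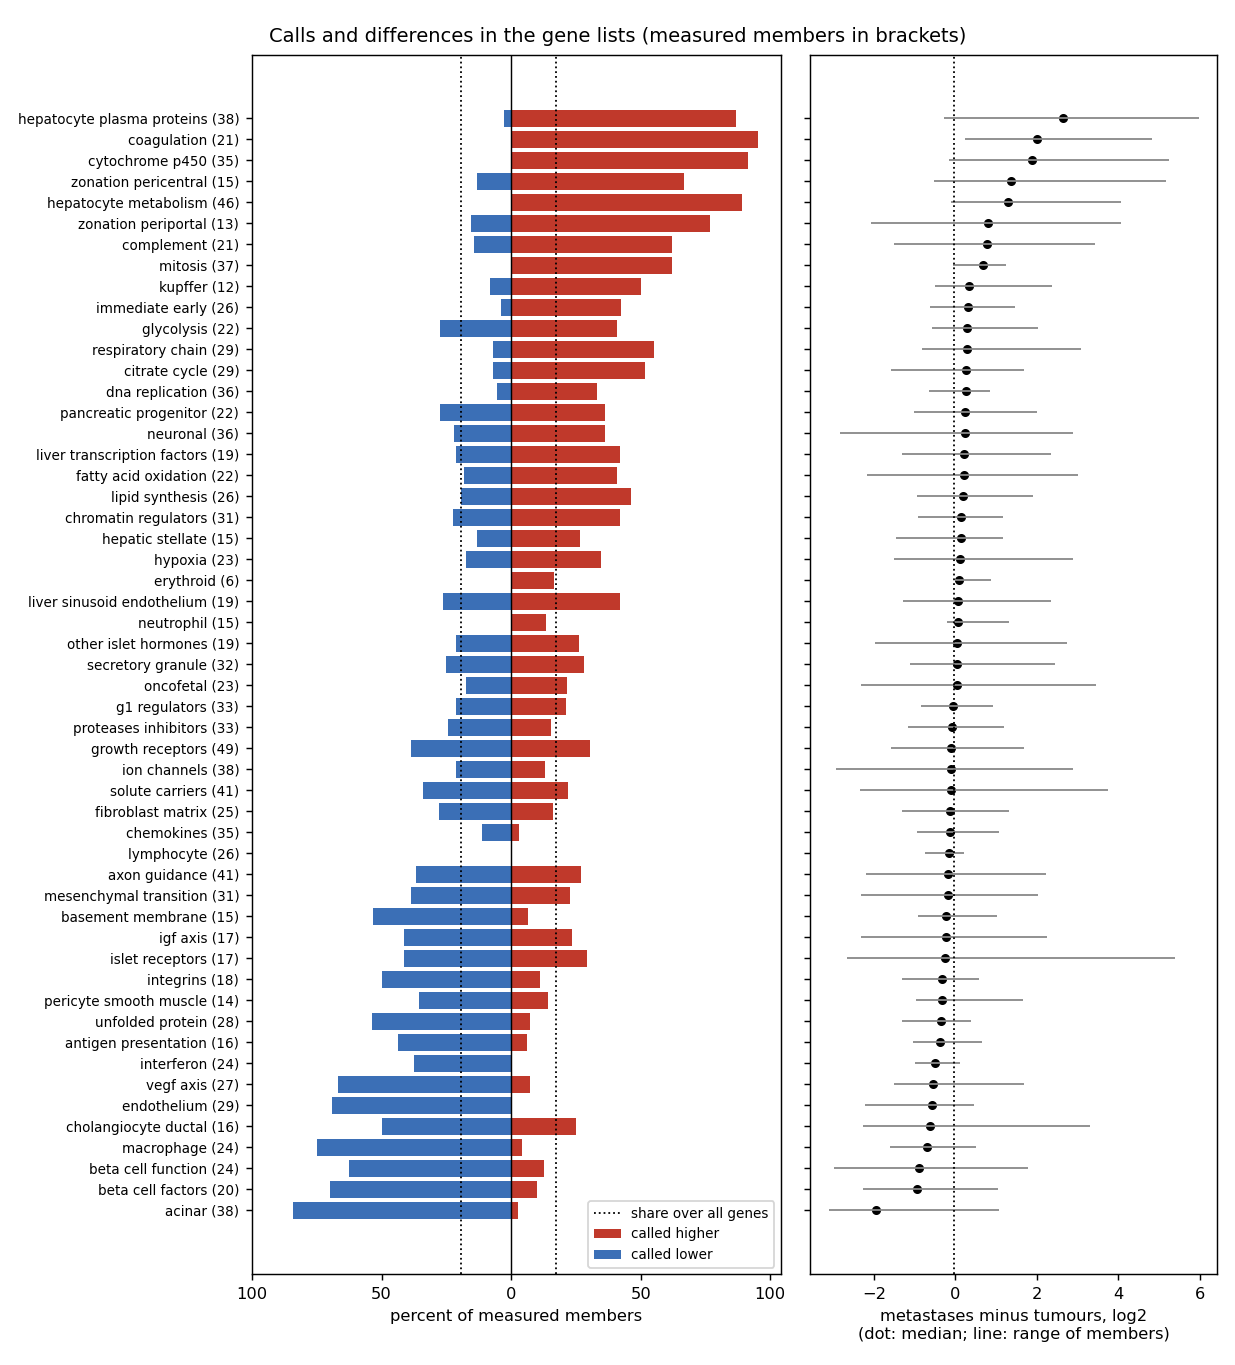
For 53 gene lists, the percent of measured members called higher (right) or lower (left) in liver metastases, and the median and range of the members' log2 differences; dotted lines give the same over all genes. Hepatocyte lists stand at the top, with medians up to 2.65, and acinar and beta cell lists at the bottom, down to -1.94.

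Both tissue labels could be checked against marker genes. The metastases had high levels of the endocrine genes Ins2 (10.26, 10.22 and 10.53), Chga (12.05, 11.66 and 11.70) and Isl1 (11.77, 11.80 and 11.58), and of hepatocyte genes such as Alb (13.16, 13.08 and 12.89). The mean of 38 plasma protein genes of hepatocytes was 9.46, 9.36 and 9.19 in the metastases and between 6.72 and 6.83 in the islet tumours, and the mean of 38 acinar genes was 8.24, 8.25 and 9.14 in the metastases and between 9.90 and 10.61 in the islet tumours. Both lists separated the groups without overlap, so the levels of hepatocyte and acinar genes moved with every difference between the groups. With the hepatocyte mean as a covariate the median standard error rose from 0.11 to 0.45 and 9 genes were called, so that in these arrays hepatocyte content and group could hardly be told apart. With the acinar mean as a covariate 5788 genes were called. The part of liver tissue in any single difference was not tested beyond this fit.

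I-9822-Met stood apart from the other metastases. Among the 32 acinar genes called lower, I-9822-Met was the highest of the 3 metastases for 29, and among the 15 beta cell function genes called lower it was the highest for 12. Over all 3845 genes called lower it was the highest for 49.0%. The median of those beta cell function genes stood at -1.74 and -1.70 against the tumour mean in I-9820-Met and I-9821-Met and at -1.02 in I-9822-Met. I-9822-Met was at the same time the lowest of the 3 for the mean of the hepatocyte plasma proteins and the highest for none of the 33 members called higher. Over all genes called higher it was the highest for 34.0%. Without this array 6076 genes were called, and 5944 of them were also called in the same direction with it.

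**Figure D3:**
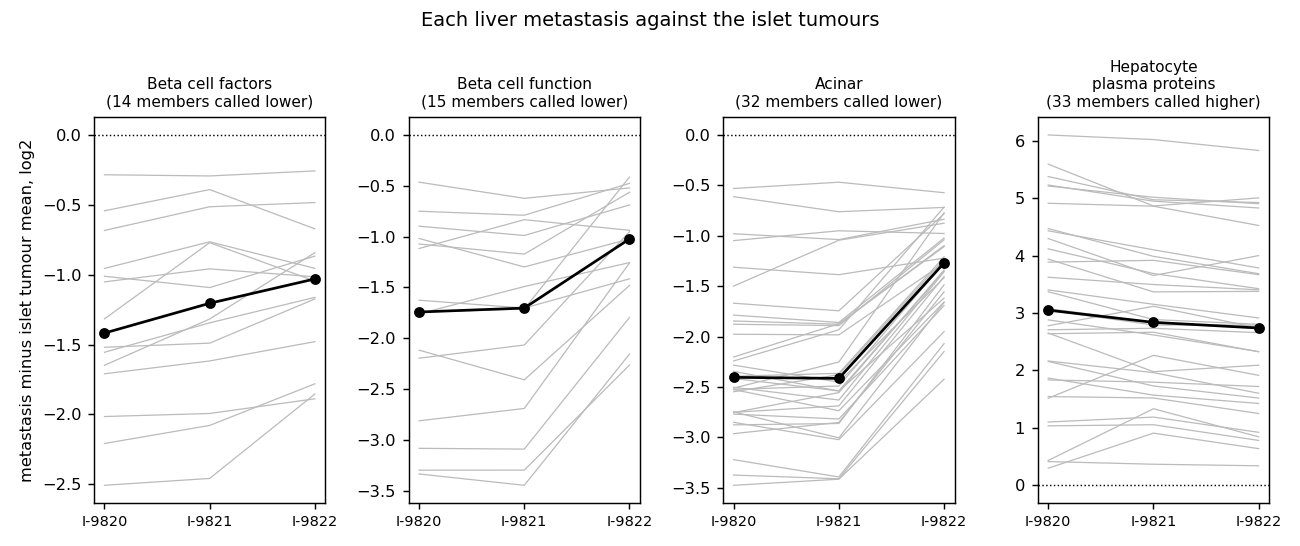
Difference of each liver metastasis from the mean of the 5 islet tumours on the log2 scale, for called members of 4 gene lists; grey lines join the values of 1 gene, the black line joins the medians, and the 3 arrays have no order. I-9822-Met lies closest to the tumours for the acinar and beta cell function genes.

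Many genes of hepatocytes rose. Of the 219 called genes that rose by at least 2 on the log2 scale, 70 belonged to the 5 lists of plasma proteins, clotting factors, cytochrome P450 enzymes, liver metabolism and complement. Of 38 measured plasma protein genes 33 rose and 1 fell, with a median of 2.65. Of 21 clotting factor genes 20 rose, with a median of 2.01, and of 35 cytochrome P450 and conjugating enzyme genes 32 rose, with a median of 1.88. Of 46 genes of the urea cycle and of amino acid, glucose and bile metabolism 41 rose, with a median of 1.28. No member of these last 3 lists fell, at an adjusted p below 0.05 or at an unadjusted p below 0.05. Complement was divided, since 13 of 21 members rose, among them Hc (3.18) and C4bp (3.43), while C1qa, C1qb and C1qc, which macrophages make, fell.

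The promoters of some of these genes carry the core letters of the site of HNF1, a homeodomain factor of liver, pancreas and kidney. The 4 stretches below are shown because their genes rose, by 5.98 for Alb down to 2.88 for Vtn, and carry these letters. All of them lay above the median rise of the plasma protein list. They were taken from the RefSeq promoters of build GRCm38.p6, each is 80 bases long and lies upstream of the gene's start, and the capitals mark GTTAAT or its reverse complement.
Alb: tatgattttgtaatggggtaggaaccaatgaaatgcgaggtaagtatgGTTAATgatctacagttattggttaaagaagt
Serpina1c: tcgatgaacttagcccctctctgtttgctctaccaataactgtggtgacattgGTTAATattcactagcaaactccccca
Fgb: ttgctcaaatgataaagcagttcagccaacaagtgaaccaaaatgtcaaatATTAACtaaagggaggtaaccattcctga
Vtn: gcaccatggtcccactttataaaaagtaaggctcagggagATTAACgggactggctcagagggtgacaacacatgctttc
The Alb stretch is chr5:90460790-90460869 on the plus strand, that of Serpina1c chr12:103904951-103905030 on the minus strand, that of Fgb chr3:83049864-83049943 on the minus strand and that of Vtn chr11:78498968-78499047 on the plus strand. The capitals start at -32, -27, -29 and -112 from the gene's start, in that order. Within 250 bases upstream, on either strand, GTTAAT was found for 8 of 31 plasma protein genes with a promoter (25.8%), 4 of 18 clotting factor genes (22.2%) and 6.6% of the 15614 genes tested that had one. It was as frequent in genes that went the other way, with 7 of 31 acinar genes (22.6%) and 3 of 16 beta cell factors (18.8%). A match of letters is a description of the sequence and not a measured site.

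Alb, the main protein of blood plasma, showed the largest rise of all genes tested. On the islet tumour arrays it read 7.80, 6.5, 6.04, 8.24 and 6.72, against 13.16, 13.08 and 12.89 on the metastasis arrays. The lowest metastasis was far above the highest tumour, and the difference was 5.98 ± 0.82 (SE; limma, adjusted p = 6.44e-06), 63.3-fold. The tumours themselves spread over more than 2 log2 units, and the metastasis-like primaries, which are not from liver, lay between 7.61 and 11.78. Other hepatocyte genes were low and even in the islet tumours. Hpx, which binds free haem, read 6.60, 6.45, 6.51, 6.38 and 6.47 in the tumours and 11.69, 11.50 and 11.39 in the metastases, a rise of 5.04 ± 0.26 (SE; limma, adjusted p = 1.26e-11), and the metastasis-like primaries stayed between 6.15 and 6.57. The angiogenic islets of the series were less even, from 6.24 to 8.28 for Hpx.

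The fibrinogen chain gene Fgb rose by 4.82 ± 0.33 (SE), from levels between 5.64 and 5.96 in the tumours to 10.88, 10.65 and 10.41. Cyp2e1, an ethanol-oxidising P450 of the central vein zone, read 5.48, 4.99, 5.16, 5.06 and 4.96 in the tumours and 10.91, 10.25 and 9.78 in the metastases. Cps1, the entry enzyme of the urea cycle and a gene of the portal zone, rose from between 5.62 and 5.88 to 10.20, 9.71 and 9.57. Genes of both zones of the liver lobule were thus found together: 10 of 15 genes of the central vein zone and 10 of 13 of the portal zone rose, and 2 of each fell. For all 3 genes I-9820-Met was highest and I-9822-Met lowest.

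Serpina1c, which codes for an alpha-1-antitrypsin, differed from those genes. It rose by 5.0 ± 0.70 (SE; limma, adjusted p = 8.09e-06), from 5.66, 6.74, 8.38, 7.08 and 7.40 to between 11.88 and 12.28. In the metastasis-like primaries, which share the islet tumours as their reference, it already stood at 10.09 to 11.39, where Fgb stood at 5.73 to 5.99. The Serpina1 genes of the mouse are near-identical copies, and the array may not separate them. Of the transcription factors of hepatocytes, 8 of 19 rose (42.1%, against 17.3% over all genes) and 4 fell (21.1%, near the 19.3% over all genes). Nr1h4, the bile acid receptor, rose most, from between 6.06 and 6.22 in the tumours to 8.52, 8.41 and 8.59, while Hnf4a rose by 1.05 ± 0.10 (SE) and Foxa3 and Hnf4g fell by 1.01 and 1.31. Cebpa did not pass the test (0.17 ± 0.09 SE; limma, adjusted p = 0.17).

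Resident cells of the liver were seen less clearly. Of 12 Kupffer cell genes 6 rose and 1 fell, with Vsig4, a complement receptor of these macrophages, at 4.61, 4.61, 4.72, 5.08 and 5.39 in the tumours and 7.37, 7.25 and 7.19 in the metastases. The rise of Vsig4 was 2.38 ± 0.20 (SE; limma, adjusted p = 5.8e-09). Clec4f, a lectin found on Kupffer cells, rose by only 0.42 ± 0.11 (SE), and Timd4 and Marco did not pass the test. With the title prefix as a block 2 of the 12 Kupffer genes were called higher, and Clec4f lost its call (limma, adjusted p = 0.108). Of 19 genes of liver sinusoid endothelium 8 rose (42.1%, against 17.3% over all genes) and 5 fell (26.3%, against 19.3%). The list thus went both ways, with a median of 0.08 and members from -1.27 to 2.35. Among those that rose were Stab2 (1.06 ± 0.20 SE), a scavenger receptor, and the lectin gene Clec4g (1.19 ± 0.17 SE).

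General macrophage genes went the other way. Of 24 measured members 18 fell and 1 rose, Itgam, and the median was -0.71. The rise of Itgam (0.5 ± 0.15 SE) lost its call with the title prefix as a block (limma, adjusted p = 0.132) and without I-9821-Met (adjusted p = 0.0738). Lyz2, the lysozyme of macrophages, read 10.73, 10.83, 10.40, 10.80 and 10.73 in the tumours and 8.87, 9.20 and 9.23 in the metastases. C1qa fell by 1.5 ± 0.17 (SE) and Csf1r, the receptor for macrophage colony-stimulating factor, by 0.73 ± 0.20 (SE). With the acinar mean as a covariate 10 members were called lower, Lyz2 and C1qa among them (limma, adjusted p = 0.0016 and 3.9e-05), and Csf1r and Adgre1 lost their calls (adjusted p = 0.147 and 0.128). The metastases' mean over the list was 7.44 to 7.64 and that of the tumours 8.01 to 8.61.

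Vessel genes were lower in the metastases. Of 29 general endothelial genes 20 fell and none rose, where at an unadjusted p below 0.05 it was 21 and 1, and the median was -0.58. The metastasis-like primaries shared the low level. The list mean was 7.37 to 7.62 in them, 7.43 to 7.52 in the metastases and 7.95 to 8.24 in the islet tumours. Plvap, the diaphragm protein of fenestrated capillaries, read 9.55, 10.45, 10.04, 9.85 and 9.89 in the tumours and 7.66, 7.66 and 7.88 in the metastases. Its difference was -2.22 ± 0.17 (SE; limma, adjusted p = 3.12e-09), and no array of one group reached the other. The receptors Kdr and Flt1 fell by 1.27 ± 0.16 (SE) and 1.15 ± 0.15 (SE), and Pecam1 fell by 0.84 ± 0.16 (SE).

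The growth factor behind these receptors was lower as well. Vegfa read 10.46, 11.01, 10.57, 10.42 and 10.61 in the islet tumours and 9.06, 9.10 and 9.15 in the metastases. The difference of -1.51 ± 0.12 (SE; limma, adjusted p = 2.96e-09) is a 2.85-fold lower level, and the 3 metastases lay within 0.1 log2 units of each other. The metastasis-like primaries lay at 8.86 to 9.32. Of 27 vessel growth factors and receptors 18 fell and 2 rose. The risers were Fgf1, an acidic fibroblast growth factor (1.69 ± 0.15 SE), and Met, the receptor of hepatocyte growth factor, whose rise of 1.05 ± 0.27 (SE) came with overlap, since III-8017-tumor read 8.0 beside 8.19, 7.70 and 7.98.

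**Figure D4:**
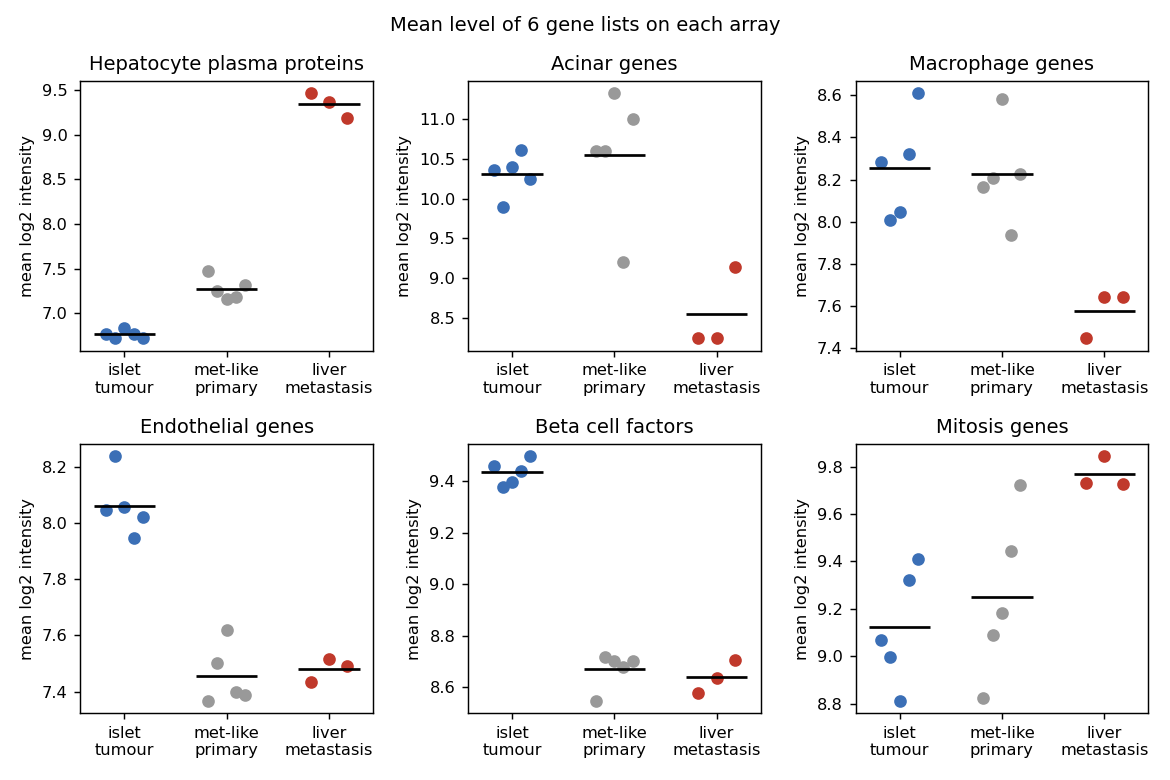
Mean log2 intensity over the measured members of 6 gene lists on each array of the islet tumours (5), metastasis-like primaries (5) and liver metastases (3); bars are group means and each panel has its own scale. Metastases and islet tumours do not overlap in any of the 6 panels.

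Acinar genes fell furthest as a group. Of 38 members 32 fell and 1 rose, Nr5a2, and the median was -1.94. The elastase gene Cela3b read 12.49, 11.74, 12.28, 12.35 and 11.98 in the tumours and 8.69, 8.75 and 9.75 in the metastases, and Sycn, a zymogen granule protein, read 11.94, 11.39, 11.81, 11.81 and 11.43 against 8.46, 8.29 and 9.61. Even so the metastases were not at the bottom of the scale, since Cpa1 stood between 10.96 and 11.74. Its fall of 1.61 ± 0.55 (SE; limma, adjusted p = 0.0257) lost its call without I-9820-Met (adjusted p = 0.0883) or I-9821-Met (adjusted p = 0.0934). The standard error also draws on the normal islets, where the standard deviation of Cpa1 was 1.88, against 0.11 in the islet tumours and 0.44 in the metastases. The count of 32 was not stable: it was 12 without I-9820-Met, 9 without I-9821-Met, 20 to 22 without I-9811-tumor, II-6415-tumor, III-8017-tumor or III-8024-tumor, and 1 within prefix I, while the median stayed at -1.85 there.

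Factors that define the mature beta cell were lower in the metastases. Of 20 measured factors 14 fell and 2 rose, and the median was -0.94. Pdx1, a homeodomain factor of pancreas and beta cells, read 9.92, 9.86, 9.60, 10.13 and 9.81 in the tumours and 7.36, 7.40 and 8.01 in the metastases. The difference was -2.27 ± 0.16 (SE; limma, adjusted p = 4.44e-10), a 4.83-fold lower level. In the metastasis-like primaries Pdx1 lay at 6.73 to 7.38. Nkx6-1 fell by 2.02 ± 0.20 (SE), Mafa, which drives insulin transcription in mature cells, changed by -1.39 ± 0.18 (SE), and Insm1, an endocrine zinc finger factor, by -1.27 ± 0.17 (SE).

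Not every endocrine factor took part. Nkx2-2 stood between 9.89 and 10.03 in the tumours and at 9.90, 9.88 and 10.04 in the metastases, a difference of -0.03 ± 0.10 (SE; limma, adjusted p = 0.87). Isl1, a pan-endocrine LIM factor, rose by 0.54 ± 0.12 (SE), a call that the title prefix as a block ended (limma, adjusted p = 0.102). The other riser, Hnf4a, is shared with hepatocytes. The list called 14 members lower with the title prefix as a block too. I-9822-Met was the highest metastasis for 10 of the 14 members that fell, where over all genes called lower it was the highest for 49.0%.

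Of 24 beta cell function genes 15 fell and 3 rose, with a median of -0.90. The list mean was 9.08 to 9.57 in the metastases, 8.80 to 9.19 in the metastasis-like primaries and 9.98 to 10.38 in the islet tumours. The deepest falls were in receptors and in a secreted peptide. Ucn3, a peptide of mature beta cells, read 10.41, 10.40, 10.85, 10.52 and 10.80 in the tumours and 7.30, 7.30 and 8.33 in the metastases. The incretin receptor gene Glp1r read 11.58, 11.12, 11.34, 11.75 and 11.62 against 8.40, 8.39 and 9.69, and Ffar1, the fatty acid receptor of beta cells, read 11.35, 11.04, 10.76, 11.43 and 11.42 against 7.86, 7.75 and 9.04. In each of these genes I-9822-Met was about 1 log2 unit above the other metastases and still below every tumour. Without it the differences were -3.30 for Ucn3, -3.09 for Glp1r and -3.39 for Ffar1, where with it they were -2.95, -2.66 and -2.98. The metastasis-like primaries lay at 6.63 to 7.94 for Ucn3, 7.75 to 9.02 for Glp1r and 7.59 to 8.84 for Ffar1.

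The hormones themselves fell less. Ins2 read 11.06, 11.05, 11.04, 10.98 and 10.93 in the tumours and 10.26, 10.22 and 10.53 in the metastases, a difference of -0.67 ± 0.10 (SE; limma, adjusted p = 1.52e-05), and Iapp, secreted with insulin, fell by 0.94 ± 0.15 (SE). The glucose carrier Slc2a2 did not pass the test (-0.70 ± 0.33 SE; limma, adjusted p = 0.111), and its tumours spread from 8.63 to 10.52. Outside the list, Bace2, a protease of beta cells, had the largest fall of any gene that is not acinar, from 10.99, 10.75, 10.84, 10.79 and 10.85 to 7.45, 7.42 and 8.41. In the metastasis-like primaries it lay at 6.91 to 7.83. Mlxipl, a glucose-responsive factor of beta cells and hepatocytes alike, fell by 2.54 ± 0.17 (SE). The metastasis-like primaries differed from the islet tumours by -2.25 ± 0.15 (SE) for Mlxipl. Hadh, an enzyme of fatty acid oxidation that beta cells hold at high levels, fell by 2.17 ± 0.24 (SE), and Pcx, pyruvate carboxylase, by 1.58 ± 0.10 (SE).

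Of 19 measured genes of other islet hormones and cell factors 5 rose (26.3%) and 4 fell (21.1%), and the median was 0.05. Over all genes the shares were 17.3% and 19.3%. The members that fell were hormones. Sst (somatostatin of delta cells) fell by 1.33 ± 0.22 (SE), and the others changed by -1.98 ± 0.51 (SE) for Ppy (pancreatic polypeptide), -1.51 ± 0.24 (SE) for Pyy and -1.37 ± 0.45 (SE) for Gcg (glucagon of alpha cells). Gcg overlapped between the groups, as II-649-tumor read 8.30 and the metastases 8.44, 8.33 and 8.90, and with the title prefix as a block neither Gcg nor Ppy kept its call (limma, adjusted p = 0.237 and 0.0746). Gcg also lost its call with the acinar covariate (adjusted p = 0.176) and without I-9820-Met, I-9821-Met, III-8017-tumor or III-8024-tumor (adjusted p from 0.0551 to 0.0809). Among the members that rose were transcription factors of alpha cells. Pou3f4, a POU factor of alpha cells, read 6.59, 6.62, 6.71, 7.16 and 7.0 in the tumours and 9.41, 9.80 and 9.48 in the metastases, and Irx1 and Irx2 rose by 1.83 ± 0.11 (SE) and 1.77 ± 0.15 (SE).

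Granule proteins, which all endocrine cells hold, were divided. Of 32 members 9 rose and 8 fell, and their median of 0.04 lay near that of all genes. Vgf, a granin-like peptide precursor, rose most, from 7.18, 6.74, 6.95, 7.46 and 6.55 to 9.55, 9.10 and 9.61. Chga fell by 0.82 ± 0.12 (SE) and Chgb rose by 0.48 ± 0.12 (SE), and the rise of Chgb lost its call with the title prefix as a block (limma, adjusted p = 0.097) or with the acinar covariate (adjusted p = 0.069). The somatostatin receptors, which are drug targets in neuroendocrine tumours, did not move together. Sstr2 read 6.78, 6.57, 6.71, 6.52 and 6.48 in the tumours and 8.21, 7.53 and 8.11 in the metastases, a rise of 1.34 ± 0.17 (SE; limma, adjusted p = 1.87e-06), Sstr1 rose by 0.66 (a call lost with the title prefix as a block, adjusted p = 0.0792), Sstr3 fell by 1.22 ± 0.12 (SE) and Sstr5 by 0.56 ± 0.13 (SE).

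Several of the largest rises were in genes that are not markers of liver. Calcr, Cartpt, Sct, Tfap2b, Peg10 and Sgce were taken from the 20 largest rises in which the mean of the metastases was not above the highest metastasis-like primary, a rule chosen after the values were seen. Calcr, the calcitonin receptor, read 7.18, 6.19, 5.69, 8.81 and 6.24 in the islet tumours and 12.31, 12.19 and 12.15 in the metastases. Its difference of 5.39 ± 1.01 (SE; limma, adjusted p = 0.00024) is 42.0-fold. The 3 metastases agreed within 0.2 log2 units while the tumours spread over more than 3, and the metastasis-like primaries ran from 6.63 to 12.22.

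Cartpt, a neuropeptide precursor, read 8.73, 8.37, 8.46, 10.51 and 9.26 in the tumours and 12.91, 12.77 and 12.74 in the metastases, and again III-8017-tumor was the highest tumour, as it was for Calcr. Sct, the hormone secretin, rose by 3.69 ± 0.56 (SE) and Tfap2b, an AP-2 factor, by 3.77 ± 0.30 (SE). The imprinted neighbours Peg10 and Sgce rose together. Peg10, derived from a retrotransposon, read 8.52, 9.68, 10.20, 10.42 and 9.99 against 13.22, 13.24 and 13.16, and Sgce, a sarcoglycan, read 6.71, 6.74, 7.34, 7.30 and 7.12 against 9.99, 10.01 and 9.85. Both were at the level of the metastasis-like primaries, which ranged from 13.06 to 13.33 for Peg10 and from 9.78 to 10.06 for Sgce.

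The 7 rises that kept a call with both the hepatocyte and the acinar mean as covariates were Nsg2, Slc2a3, Hcar1, Ebf3, Tm4sf1, Abcg2 and Dpy19l1. These calls were close to the threshold. With the hepatocyte mean alone the adjusted p (limma) ran from 0.0314 to 0.057, and Abcg2 (0.057) did not pass. Slc2a3 gave 3.71 ± 0.66 (SE) in that fit. The differences that follow are from the fit without covariates. Slc2a3, a high-affinity glucose carrier of neurons, read 7.02, 6.65, 6.60, 6.88 and 6.70 in the tumours and 9.47, 9.79 and 9.75 in the metastases, 2.90 ± 0.15 higher (SE; limma, adjusted p = 1.72e-11). Hcar1, a receptor for lactate, read 6.62, 6.77, 6.78, 6.77 and 6.61 against 9.39, 9.45 and 9.33. Neither gene showed any tumour within 2 log2 units of a metastasis. Slc16a1, which moves lactate and pyruvate across the membrane and is normally silent in beta cells, rose by 2.02 ± 0.14 (SE). Slc38a1, a glutamine carrier, rose from 6.70, 6.64, 7.21, 8.41 and 6.62 to 10.93, 10.86 and 10.83. Slc38a1 was at 6.93 to 8.85 in the metastasis-like primaries.

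**Figure D5:**
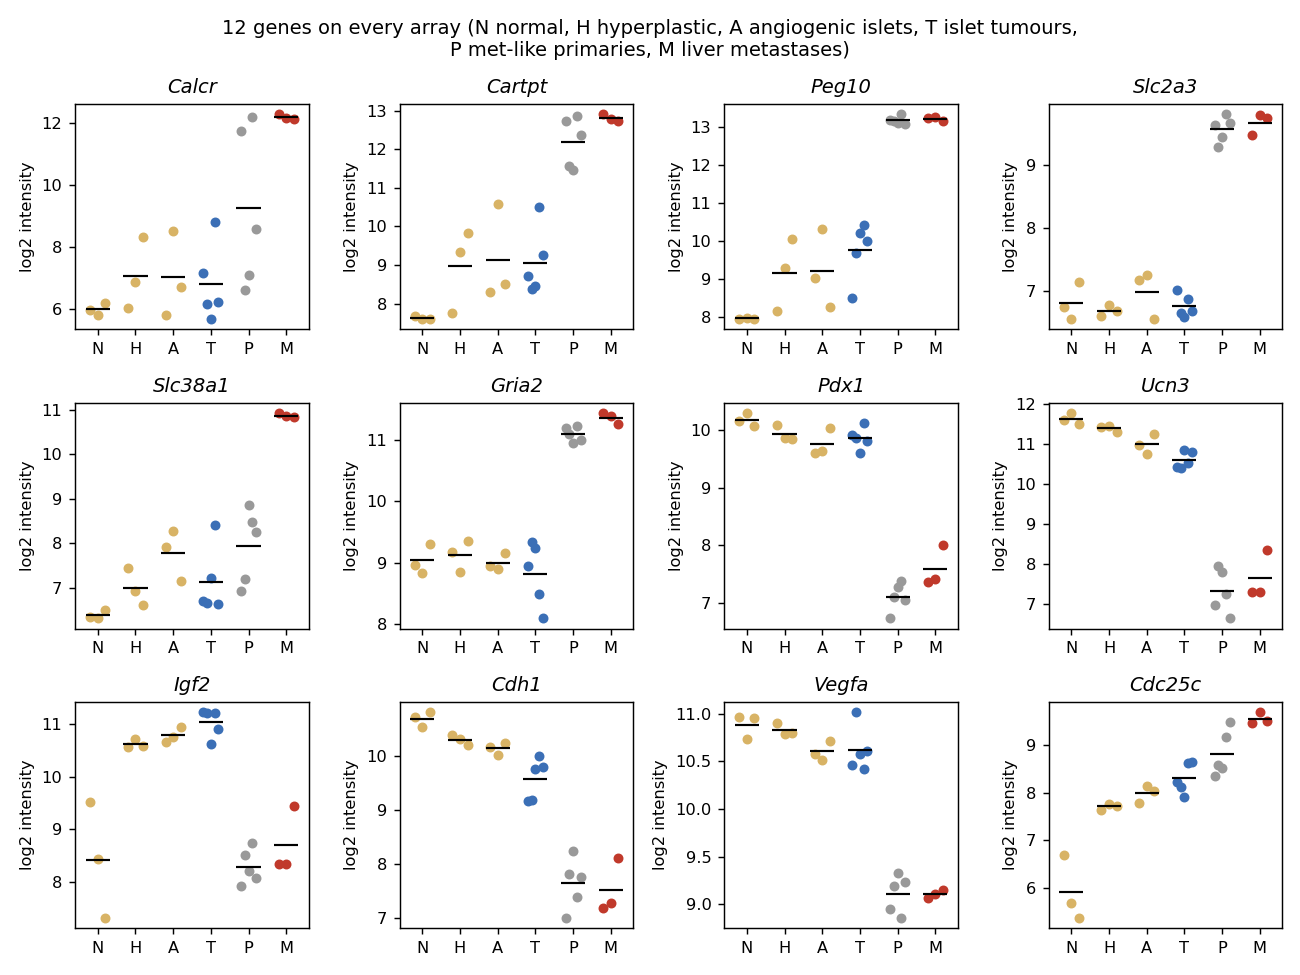
Log2 intensity of 12 genes on every array of the series by group, 1 point per array, with group means as bars and a scale of its own for each gene. The liver metastases lie above every islet tumour for the first 6 genes and for Cdc25c, and below every islet tumour for Pdx1, Ucn3, Igf2, Cdh1 and Vegfa.

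Neuronal genes moved in both directions. Of 36 members 13 rose (36.1%, against 17.3% over all genes) and 8 fell (22.2%, near the 19.3% over all genes). The list median was 0.23, and within prefix I it was -0.01. Gria2, a glutamate receptor subunit, read 8.94, 9.33, 9.24, 8.49 and 8.09 in the tumours and 11.44, 11.39 and 11.26 in the metastases, and the sodium channel gene Scn3a rose by 2.88 ± 0.28 (SE). The related channel gene Scn9a went the other way, from 8.98, 9.27, 8.79, 8.47 and 9.13 to 5.93, 5.44 and 6.63, as did the adhesion protein Cntn1, by -2.84 ± 0.39 (SE). Elavl2, a neuronal RNA-binding protein, rose by 2.13 ± 0.18 (SE), and its relative Elavl4 fell by 1.35. Nrn1, a membrane protein that promotes neurite growth, read 5.70, 6.05, 5.84, 5.32 and 5.76 in the tumours and 10.20, 10.83 and 10.86 in the metastases, 29.8-fold higher.

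Mitosis genes were higher in the metastases. Of 37 members 23 rose (62.2%, against 17.3% over all genes) and none fell, where at an unadjusted p below 0.05 it was 27 and none. The median was 0.68. On 30 of the 37 the metastases were higher without overlap, which held for 17.6% of all genes. Cdc25c, a phosphatase that starts mitosis, read 8.22, 8.11, 7.90, 8.61 and 8.63 in the tumours and 9.46, 9.68 and 9.49 in the metastases. The difference was 1.25 ± 0.25 (SE; limma, adjusted p = 0.000465). Cdc20, an activator of the anaphase-promoting complex, rose by 0.81 ± 0.16 (SE), Kif2c, a spindle motor, by 1.03 ± 0.25 (SE) and Cdk1, the mitotic kinase, by 0.67 ± 0.20 (SE). Cdk1 lost its call without I-9821-Met (limma, adjusted p = 0.0607). Mki67, the usual proliferation marker, did not pass the test at 0.38 ± 0.32 (SE; limma, adjusted p = 0.386), and II-6415-tumor at 9.94 stood below the other tumours, which ran from 10.67 to 11.02.

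The mitosis count depended on which arrays were compared. It was 15 without I-9821-Met, which was the highest metastasis for 18 of the 23, and within prefix I it was 4, while the median was 0.76 there. Genes of DNA replication gave 12 rises and 2 falls among 36, with a median of 0.26. Without I-9822-Met they gave 7 rises, and with the title prefix as a block 19, with a median of 0.52. Rrm2, a subunit of ribonucleotide reductase, rose by 0.79 ± 0.23 (SE), and Fen1, a flap endonuclease, fell by 0.65 ± 0.17 (SE). The fall of Fen1 lost its call with the acinar covariate (limma, adjusted p = 0.0937) and within prefix I (adjusted p = 0.0698).

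The promoters of mitosis genes are known for the cell cycle genes homology region, letters TTTGAA, through which these genes are repressed outside division. The 4 stretches below are shown because their genes were called higher, Ect2 only just, and carry it, and the capitals mark TTTGAA or its reverse complement in 80 bases upstream of the start (RefSeq, GRCm38.p6).
Kif2c: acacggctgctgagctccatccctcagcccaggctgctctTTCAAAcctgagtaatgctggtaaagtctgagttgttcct
Prc1: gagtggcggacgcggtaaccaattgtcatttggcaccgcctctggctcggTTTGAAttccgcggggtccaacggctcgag
Cdc20: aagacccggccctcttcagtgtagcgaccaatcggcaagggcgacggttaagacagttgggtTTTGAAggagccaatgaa
Ect2: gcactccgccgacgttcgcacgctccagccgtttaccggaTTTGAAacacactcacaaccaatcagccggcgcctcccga
They lie at chr4:117178836-117178915 (minus strand) for Kif2c, chr7:80294396-80294475 (plus strand) for Prc1, chr4:118437344-118437423 (minus strand) for Cdc20 and chr3:27153953-27154032 (minus strand) for Ect2, with the capitals starting at -103, -30, -18 and -114. Within 250 bases upstream TTTGAA was found for 11 of 30 mitosis genes (36.7%), 6 of 31 replication genes (19.4%) and 15.7% of all genes tested, and as often for cytochrome P450 genes (39.3%). The letters CCAAT were found for 70.0% of the mitosis genes and 38.8% of all genes. Both strands were searched for each motif, and letters of different motifs may overlap. Prc1 and Ect2 rose by 0.99 ± 0.26 (SE) and 0.72 ± 0.28 (SE), the latter close to the threshold (limma, adjusted p = 0.0489). Ect2 lost its call with the acinar covariate (adjusted p = 0.0598) and without any 1 array other than III-8017-tumor (adjusted p from 0.0521 to 0.136).

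Of 31 genes of epithelial adhesion and mesenchymal transition 7 rose and 12 fell, with a median of -0.17, and 5 fell within prefix I. With all arrays 22.6% of the list rose, near the 17.3% over all genes, and 38.7% fell, against 19.3% over all genes. Cdh1, the cadherin of epithelial junctions, read 9.16, 9.18, 9.77, 9.999 and 9.80 in the tumours and 7.18, 7.28 and 8.10 in the metastases. Its difference was -2.06 ± 0.24 (SE; limma, adjusted p = 6.39e-07), and I-9822-Met, the highest metastasis, was still over 1 log2 unit below the lowest tumour. Epcam fell by 1.73 ± 0.24 (SE), and Esrp1, a splicing regulator of epithelia, fell by 2.32 ± 0.23 (SE). Of the members linked to mesenchymal cells, Tgfbi (2.02 ± 0.27 SE) and Twist2 (1.58) rose. Snai2 rose by 0.77 ± 0.23 (SE) and lost its call with the acinar covariate (limma, adjusted p = 0.143) and without I-9820-Met (adjusted p = 0.0609). Vim (0.38 ± 0.20 SE), Snai1 (-0.14), Twist1 (-0.08), Cdh2 (-0.21) and Zeb2 (0.04) did not pass the test. Krt19, a duct keratin, did not pass the test (-0.69 ± 0.36 SE; limma, adjusted p = 0.142).

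Within the insulin-like growth factor axis the ligand gene Igf2 and the receptor gene Igf1r were lower. Igf2, a survival factor of these tumours, read 11.22, 11.20, 10.62, 11.21 and 10.91 in the islet tumours and 8.34, 8.35 and 9.44 in the metastases. The difference was -2.32 ± 0.32 (SE; limma, adjusted p = 8.18e-06), and the metastasis-like primaries lay at 7.94 to 8.75. Its receptor gene Igf1r fell by 1.5 ± 0.14 (SE). Of 17 members 7 fell (41.2%, against 19.3% over all genes) and 4 rose (23.5%, against 17.3%), with a median of -0.23. Igfbp1, a binding protein of hepatocytes, was among those that rose (2.24 ± 0.16 SE). Ret, the receptor of glial-derived factors, fell by 1.46 ± 0.26 (SE), and Men1, a tumour suppressor mutated in human pancreatic neuroendocrine tumours, by 0.84 ± 0.08 (SE), from 9.28, 9.38, 9.25, 9.69 and 9.18 to 8.49, 8.48 and 8.56.

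Energy metabolism shifted within pathways. Of 29 respiratory chain genes 16 rose and 2 fell, and of 29 genes of pyruvate entry and the citrate cycle 15 rose and 2 fell, mostly by small amounts (medians 0.29 and 0.27). The respiratory chain list and its 16 rises include Ppargc1a, which is a coactivator of mitochondrial genes and not a subunit. Ppargc1a had the largest rise of that list, from 5.48, 5.79, 5.73, 5.92 and 5.68 to 8.56, 8.99 and 8.88. Ldha, which turns pyruvate into lactate and is normally kept low in beta cells, rose by 1.31 ± 0.25 (SE; limma, adjusted p = 0.000335), where the metastases read 9.90, 10.18 and 9.99 and the highest tumour 9.0. Of 28 genes of the unfolded protein response 15 fell and 2 rose, among the former Asns, asparagine synthetase (-1.32 ± 0.14 SE), and Ern1, the sensor IRE1 (-1.0 ± 0.20 SE), while the chaperone Hspa5 did not pass the test (-0.25).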

How the data were processed

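RNA of dissected islets, tumours and liver metastases was extracted with TRIzol and hybridised to Affymetrix Mouse Gene 1.0 ST arrays, and the CEL files were processed with aroma.affymetrix, per the series' design text; its version and settings are not recorded there. The deposited values are log2 intensities of 35511 probe sets, and the authors' normalization was kept. Of these, 21789 had a single gene symbol, 1621 several, and 12101 were not listed in the platform annotation. The probe set with the highest mean stood for each of 19938 genes, and 19855 matched RefSeq. Groups came from the tissue labels. limma 3.58.1 (R 4.3.3) was fitted to all 22 arrays with 1 mean per group (16 residual degrees of freedom), with Benjamini-Hochberg adjustment over all genes, and was tested on simulated data.

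Alternatives were the 8 arrays alone, the title prefix as a block or as a restriction, quantile normalization, median centring, leaving out the dimmest 25% of genes, all probe sets, array weights, trended robust variance, a fold minimum of 1 log2, the hepatocyte plasma protein and acinar list means as covariates, and leaving out each array. Named genes were the 10 largest rises and falls among called genes without overlap, rises also called with both covariates, members of 53 gene lists and a short list of islet and liver genes, with rises at the level of the metastasis-like primaries and falls outside the acinar list added after the values were seen. The comparison and the gene lists were chosen with earlier results of these data known, so list counts are descriptions and carry no test of their own. Ins1 was not analysed here. Promoters were searched on both strands over 250 bases upstream in the RefSeq table (GRCm38.p6), where 15614 genes had one. Figures were drawn with matplotlib 3.10.9.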

Additional observations from a re-analysis of the deposited data

Results flagged for a closer look

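Within the 5 islet tumours, Dixon's gap test set a single array apart in 7 of 188 sets of values (genes named and list means), and chance alone sets apart about 1 in 20. The list mean of interferon-stimulated genes was 8.5 in III-8024-tumor and 7.26 to 7.36 in the other tumours, and that of antigen presentation genes was 8.93 in the same array and 8.41 to 8.56 in the others. Between metastases and islet tumours 9 of 24 interferon genes were called lower with all arrays and 9 without III-8024-tumor (4, 5 and 6 without I-9820-Met, I-9821-Met and I-9822-Met), and for antigen presentation the counts were 7 and 3 of 16 (4, 3 and 4 without those metastases). With the title prefix as a block 1 interferon gene and 2 antigen presentation genes were called lower, and with the acinar covariate 2 and 2. The mean of the cytochrome P450 list was 5.82 in I-9811-tumor and 5.60 to 5.67 in the other tumours. Among single genes, Flt1 read 9.44 in II-649-tumor and at most 8.93 elsewhere. Krt19 read 7.31 in III-8017-tumor and at most 6.55 elsewhere. Robo2 read 9.38 in the same array and at least 9.93 elsewhere. Lyz2 read 10.40 in II-6415-tumor and at least 10.73 elsewhere.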

How the results depend on the processing

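The 7296 called genes (3451 higher, 3845 lower) became 4457 (2022 lower) within title prefix I, where 1 islet tumour faces 3 metastases and its spread is taken from the other groups. They became 1204 (713 higher, 491 lower) with a fold change of at least 1 log2, 9 (9 higher, 0 lower) with the hepatocyte covariate and 10 (10 higher, 0 lower) with both covariates; at the median standard error of 0.45 these last fits had little power, and the cause of each lost call was not tested. Every other setting kept the counts within 1.5 times, and leaving out 1 array gave 5962 to 7293 calls, 2794 to 3515 higher and 3118 to 3778 lower. The replicate block on the title prefix gave 6371 calls, and the labels do not say that the prefix pairs samples. Of the 122 called genes named, 8 lost their call with the block, 23 within prefix I and 10 with the acinar covariate, of which Cpa1 and Sycn are themselves members of the acinar list. Within prefix I the counts of several lists fell by over 1.5 times: rises of neuronal genes to 7, of guidance molecules to 7 and of sinusoid endothelium to 4, and falls of unfolded protein response genes to 6, of guidance molecules to 9, of granule genes to 3 and of integrins to 4.

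Direction turned, without passing the test, in 11 named genes with the hepatocyte covariate and with both covariates: Alb (-3.18 in each), Serpina1c (-6.05 in each), Cyp2e1 (-2.12 and -2.11), Fgb (-0.90 in each), Clec4g (-0.33 in each), Clec4f (-0.29 in each), Sstr1 (-0.16 in each), Chgb (-0.067 and -0.066), Flt1 (0.036 and 0.037), Pecam1 (0.97 in each) and Cpa1 (0.28 and 0.27). Alb and Serpina1c are themselves members of the plasma protein list whose mean was the hepatocyte covariate. With the acinar covariate Cpa1 turned to 0.048. The number of arrays, 3 against 5, limits the precision of every value.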

Other observations

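Guidance molecules were rearranged between the metastases and the islet tumours. Of 41 members 11 rose (26.8%, against 17.3% over all genes) and 15 fell (36.6%, against 19.3%). Sema3a, a secreted semaphorin, rose by 2.22 ± 0.34 (SE) and Sema5a by 2.18 ± 0.24 (SE), while the Slit receptor Robo2 fell by 2.20 ± 0.29 (SE) and its ligand Slit1 by 1.57 ± 0.26 (SE). Of 18 integrin chains 9 fell and 2 rose, with Itgb8 at -1.30 ± 0.14 (SE), Itgav at -1.22 ± 0.16 (SE) and Itgb1, the common beta chain, at 0.59 ± 0.11 (SE). The inhibitor of differentiation Id2 rose by 2.01 ± 0.19 (SE), and Bmp2, a ligand that induces such genes, by 2.35 ± 0.16 (SE). Bmp2 had the largest rise in the list of liver sinusoid endothelium. Which cells hold Bmp2 or Id2 here, and any link between them, was not tested. Immediate-early genes gave 11 rises and 1 fall among 26 (5 rises with the acinar covariate, where the median went from 0.30 to 0.13, and 7 within prefix I), with Nr4a2 at 1.47 ± 0.21 (SE), Jun at 0.99 ± 0.16 (SE) and Egr1 at -0.62 ± 0.14 (SE). Among chromatin regulators Ezh2, the polycomb methyltransferase, rose by 0.73 ± 0.17 (SE) and Cbx7 fell by 0.91 ± 0.10 (SE). These adjusted p-values came from the limma fit over all genes and ran from 4.44e-10 for Bmp2 to 0.00189 for Ezh2. Of 26 lymphocyte genes none was called by limma, with 0 higher and 1 lower at an unadjusted p below 0.05.

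Some genes of the comparison with the islet tumours also differed between the metastases and the metastasis-like primaries, which is a contrast that shares the 3 metastasis arrays with the main comparison and takes its standard error from the same fit of all arrays. Slc38a1 was 2.93 ± 0.40 (SE) higher in the metastases than in the metastasis-like primaries (limma, adjusted p = 2.26e-05) and Fgf1 1.35 ± 0.15 (SE) higher (adjusted p = 1.86e-06). Men1 was lower by -0.65 ± 0.08 (SE; adjusted p = 1.26e-05), Igf1r by -0.87 ± 0.14 (SE; adjusted p = 0.000143) and Scn9a by -2.02 ± 0.32 (SE; adjusted p = 0.000135). The mitosis gene Cdc20 was 0.63 ± 0.16 (SE) higher (adjusted p = 0.00837). Slc2a3 gave 0.11 ± 0.15 (SE; adjusted p = 0.722) and Vegfa -0.01 ± 0.12 (SE; adjusted p = 0.983) in this contrast.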
